A study of Homo sapiens with 4 samples.

Results

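The aldo-keto reductases described here are 10 genes, AKR1A1, AKR1B1, AKR1B10, AKR1C1, AKR1C2, AKR1C3, AKR1C4, AKR1D1, AKR7A2 and AKR7A3. They were taken by symbol from the gene table of 4 established human liver cancer lines, HepG2, Huh-7D12, Hep3B and SK-Hep-1, and are 10 of its 29670 genes. All 4 lines were sequenced as ribosome-depleted total RNA with no treatment named in the labels, and Huh-7D12 is a clone of the Huh-7 line. Each line is 1 library, so no difference has a replicate check and no p-value, standard deviation or test could be given. Levels are normalized reads on a per-million scale, with an exact 95% Poisson interval in parentheses, and folds between lines carry an exact binomial (Clopper-Pearson) 95% interval. Both cover counting error only, since reads without molecular identifiers are not independent molecules.

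Aldo-keto reductases are soluble enzymes that use NADPH to turn aldehydes and ketones into alcohols. The AKR1C enzymes act on steroid hormones and prostaglandins, AKR1B1 and AKR1B10 on sugars, lipid aldehydes and retinal, AKR1D1 on steroids and bile acid precursors, and AKR1A1 and the AKR7A enzymes on small aldehydes. In liver the family takes part in bile acid synthesis, hormone inactivation and the removal of reactive carbonyls, and several members are textbook targets of NRF2, the transcription factor of the oxidative stress response.

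In HepG2 4 members were high at once: AKR1C1, AKR1C2, AKR1C3 and AKR1B10 each lay between 11.0-fold and 199.9-fold above the next line. AKR1B1 had no reads in Hep3B, AKR1D1 had none in SK-Hep-1, and AKR1C4 had reads in Huh-7D12 only. AKR1A1 and AKR7A2 had at least 369 reads in each of the 4 lines, and AKR7A3 had 2 to 7 reads per line.

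The AKR1C genes lie side by side on chromosome 10 and are close copies, so how well reads can tell them apart bears on every AKR1C value. Over the 972 coding bases AKR1C1 and AKR1C2 were 98.0% identical, with 19 substitutions, while AKR1C3 and AKR1C4 differed from AKR1C1 at 83 and 112 positions. The stretch from coding base 103 to base 162, counted from the start codon, is shown because it holds 10 of the 19 differences between AKR1C1 and AKR1C2. It is the sense strand, 5′ to 3′, of the GENCODE 29 transcripts on GRCh38, and capitals mark the 16 positions at which the 4 genes are not all the same.
AKR1C1: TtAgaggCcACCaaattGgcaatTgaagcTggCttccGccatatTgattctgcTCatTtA
AKR1C2: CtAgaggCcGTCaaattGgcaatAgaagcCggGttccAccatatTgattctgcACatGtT
AKR1C3: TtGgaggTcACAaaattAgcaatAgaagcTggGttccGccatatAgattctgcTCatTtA
AKR1C4: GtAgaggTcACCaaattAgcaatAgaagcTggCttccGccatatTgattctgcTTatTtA

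For each member the transcript with the longest coding sequence was cut into 100-base windows, the length of 1 read. For AKR1C2 32.9% (1202 of 3657 windows) were found without a mismatch in another gene, against 17.4% for AKR1C1 (1152 of 6606). Of these windows 1136 were shared between AKR1C1 and AKR1C2. The share was 4.98% for AKR1C3, 2.01% for AKR1B10 and 0.456% for AKR1C4. AKR7A3 had 12.2%, AKR7A2 0.396%, and AKR1A1, AKR1B1 and AKR1D1 had 0. How reads that match more than 1 gene were counted is not given in the sources used here, so the split between AKR1C1 and AKR1C2 is uncertain, as is the level of AKR7A3.

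**Figure D1:**
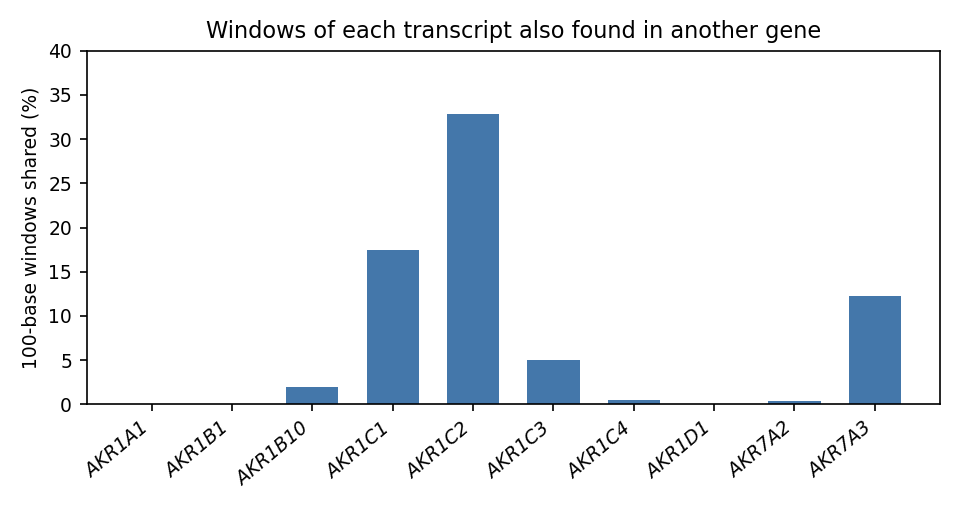
Share of the 100-base windows of each member's transcript with the longest coding sequence that also occur in a transcript of another gene, in percent (bars from 0, one bar per gene). AKR1C2 stands at 32.9% and AKR1C1 at 17.4%, and 3 members stand at 0.

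The AKR1C genes also share sequence ahead of their start sites. The 250 bases before the start are shown for the AKR1C members that were high together in HepG2 and for AKR1C4, which was not. They are from RefSeq on GRCh38.p14, and capitals mark the motifs found.
AKR1C1 (chr10:4963165-4963414, plus strand): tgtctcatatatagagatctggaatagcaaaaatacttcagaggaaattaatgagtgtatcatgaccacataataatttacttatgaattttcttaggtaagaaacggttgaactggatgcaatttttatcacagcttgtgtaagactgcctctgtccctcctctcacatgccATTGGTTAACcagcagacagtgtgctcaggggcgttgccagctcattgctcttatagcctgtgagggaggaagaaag
AKR1C2 (chr10:5003858-5004107, minus strand): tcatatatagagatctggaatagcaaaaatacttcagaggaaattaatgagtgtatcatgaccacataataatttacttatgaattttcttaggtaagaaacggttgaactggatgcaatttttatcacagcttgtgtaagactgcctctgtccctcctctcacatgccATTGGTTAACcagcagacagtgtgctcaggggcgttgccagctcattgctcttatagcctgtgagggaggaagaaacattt
AKR1C3 first start (chr10:5048531-5048780, plus strand): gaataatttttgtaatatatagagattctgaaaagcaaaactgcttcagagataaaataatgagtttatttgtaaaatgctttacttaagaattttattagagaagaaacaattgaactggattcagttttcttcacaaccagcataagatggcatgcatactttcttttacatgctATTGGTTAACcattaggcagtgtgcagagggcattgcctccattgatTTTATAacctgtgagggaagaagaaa
AKR1C3 second start (chr10:5094164-5094413, plus strand): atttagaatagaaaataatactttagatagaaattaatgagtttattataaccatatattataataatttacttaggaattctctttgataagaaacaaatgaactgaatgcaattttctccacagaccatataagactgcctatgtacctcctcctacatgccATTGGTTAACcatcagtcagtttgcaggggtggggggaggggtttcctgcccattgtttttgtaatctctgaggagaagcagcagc
AKR1C4 (chr10:5196587-5196836, plus strand): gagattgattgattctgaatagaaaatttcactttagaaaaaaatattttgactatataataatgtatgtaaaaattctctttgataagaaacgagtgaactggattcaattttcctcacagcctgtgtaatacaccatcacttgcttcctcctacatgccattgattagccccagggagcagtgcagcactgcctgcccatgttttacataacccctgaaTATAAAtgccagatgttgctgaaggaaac

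The AKR1C1 and AKR1C2 windows were identical in 245 of 254 aligned columns and had 1 substitution. AKR1C3, at its first start, was 70.7% identical to AKR1C1, and AKR1C4 58.7%. Both strands of 12 windows, covering 9 of the 10 members, were searched for TGACNNNGC (the core of the antioxidant response element, bound by NRF2), for TGANTCA (bound by AP-1), for GTTAAT (part of the HNF1 site), for CAAAGTCCA (bound by HNF4), for the TATA box as TATAAA and for the CCAAT box. The motif GTTAAC was added after the sequences were seen. The run ATTGGTTAAC was found ahead of AKR1C1, AKR1C2 and both starts of AKR1C3. It holds CCAAT on the opposite strand and GTTAAC, which overlap by 1 base, and its first base lay 77, 81, 73 and 86 bases before the respective start. It was not found ahead of AKR1C4. TATAAA was found ahead of AKR1C4 and, on the opposite strand, ahead of the first start of AKR1C3. Among all 35116 promoter windows of this length, 32.0% held CCAAT, 2.31% GTTAAC and 10.7% TATAAA. TGACNNNGC was found in none of these AKR1C windows and in 10.9% of all promoters. The AKR7A2 window, shown because it held 3 copies of TGACNNNGC, was read on the same build.
AKR7A2 (chr1:19312147-19312396, minus strand): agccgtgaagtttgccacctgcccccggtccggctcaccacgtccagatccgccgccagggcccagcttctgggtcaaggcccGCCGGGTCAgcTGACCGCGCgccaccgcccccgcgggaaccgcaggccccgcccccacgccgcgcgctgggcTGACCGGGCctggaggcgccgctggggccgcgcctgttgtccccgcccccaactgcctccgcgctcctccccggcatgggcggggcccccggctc

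AKR1B10 had no promoter window in the source used, so it was not searched. The remaining members searched held fewer matches, and AKR1A1 and AKR7A3 held none. AKR1B1 had 1 CCAAT at its first start and AKR1D1 had 1 GTTAAT, a motif held by 6.23% of promoters, while TGANTCA (6.57% of promoters) and CAAAGTCCA (0.325%) were found in none of the windows. A match describes the letters in the window and is not evidence that a factor binds there. The absence of a match covers these 250 bases only, since sequence farther from the start was not searched.

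A gene entered the comparison between lines when its highest level was at least 1, which held for 9 members and 15850 genes. Here a gene stands higher in a line if its log2(level + 1) exceeded each of the other 3 lines by 2 or more, which is 4-fold, and lower if it fell short of each by as much. By this rule 4 members stood higher in HepG2, where 1.46% of all entered genes did, and 1 stood lower in Hep3B, where 0.448% did. No member stood higher in Hep3B, Huh-7D12 or SK-Hep-1, against 0.808%, 1.52% and 5.37% of genes. None stood lower in HepG2, Huh-7D12 or SK-Hep-1, against 1.15%, 0.536% and 3.31%. The highest and lowest lines differed by at least 4-fold for 6 members, AKR1B1, AKR1B10, AKR1C1, AKR1C2, AKR1C3 and AKR1D1, against 31.4% of all entered genes. In a bulk library fewer cells that express a gene and less RNA per cell cannot be told apart.

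**Figure D2:**
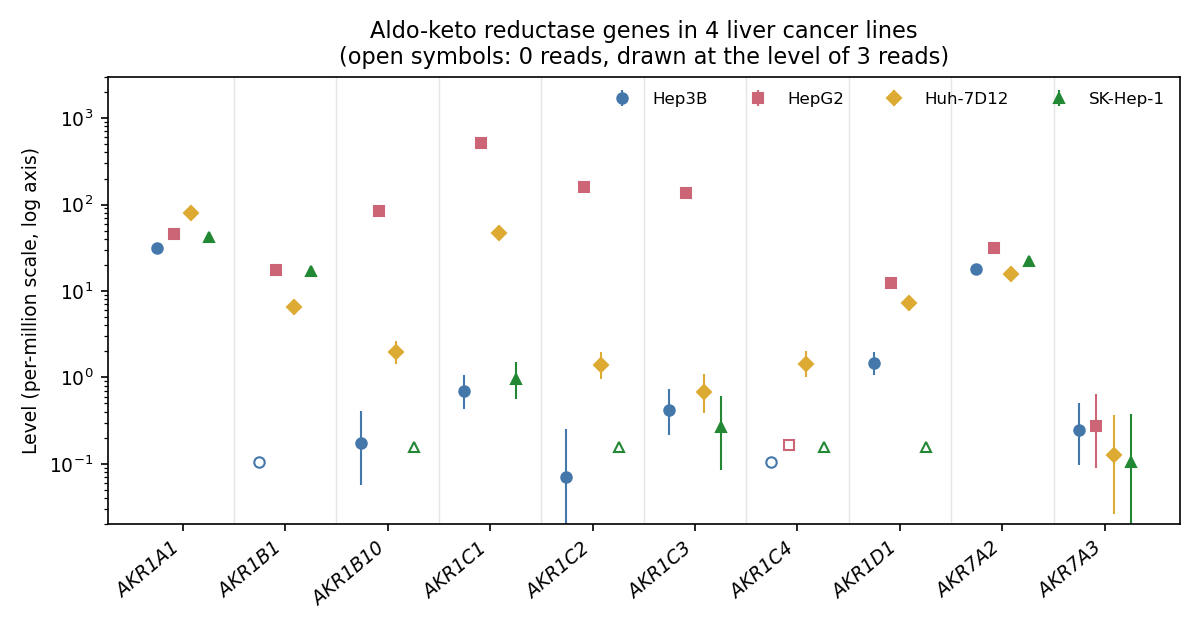
Level of each of the 10 members in each of the 4 lines, on a logarithmic axis. Each library is 1 point, with its exact 95% Poisson interval as a bar. Open symbols stand at the floor of 3 reads and mark lines without reads of a member, not measured levels. The HepG2 points of AKR1C1, AKR1C2, AKR1C3 and AKR1B10 stand far above those of the other lines, while the points of AKR1A1 and of AKR7A2 lie close together.

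AKR1C1 inactivates progesterone by reducing its side-chain ketone. The gene (ENSG00000187134) is on the plus strand of chromosome 10, from 4963253 to 4983283 on GRCh38. It had 9503 reads in HepG2, 1116 in Huh-7D12, 20 in Hep3B and 18 in SK-Hep-1, which are levels of 519 (509 to 530.0), 47.4 (44.6 to 50.2), 0.698 (0.426 to 1.08) and 0.95 (0.563 to 1.5). HepG2 was thus highest and Huh-7D12 second, with Hep3B and SK-Hep-1 close to each other near 1. The fold of HepG2 over Huh-7D12 was 11.0 (10.3 to 11.7), over Hep3B 744 (482 to 1219) and over SK-Hep-1 547 (346 to 923). Huh-7D12 was in turn 67.9-fold (43.7 to 112) above Hep3B, and SK-Hep-1 over Hep3B was 1.36 (0.679 to 2.71), an interval that holds 1.

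AKR1C2, which reduces the androgen dihydrotestosterone and binds bile acids, is the neighbour of AKR1C1 on the opposite strand (ENSG00000151632, chromosome 10, 4987400 to 5018031). Its reads were 2911 in HepG2, 33 in Huh-7D12, 2 in Hep3B and 0 in SK-Hep-1, with levels of 159 (153 to 165), 1.40 (0.964 to 1.97), 0.0698 and 0. HepG2 exceeded Huh-7D12 by 114-fold (80.7 to 165), and SK-Hep-1 by at least 1005-fold, taken against a floor of 3 reads per library. Against the 2 reads of Hep3B the ratio was 2280 with an interval of 630.5 to 18833. Huh-7D12, second for both genes, had 24.9 times as much AKR1C1 as AKR1C2 per kilobase of exon (17.6 to 36.4). In HepG2 that ratio was 2.41 (2.31 to 2.51). With the longest transcript in place of all exons, AKR1C1 and AKR1C2 held 25.0% and 13.6% of the family per kilobase in HepG2. In Huh-7D12 they held 9.79% and 0.517%. A noncoding gene antisense to AKR1C2, AL391427.1, had 2 reads in HepG2 and 4 in Huh-7D12.

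AKR1C3 makes testosterone from androstenedione and is also a prostaglandin F synthase. The gene (ENSG00000196139, chromosome 10, plus strand, 5035354 to 5107686) had 2484 reads in HepG2, 16 in Huh-7D12, 12 in Hep3B and 5 in SK-Hep-1. The levels were 136 (130 to 141), 0.679 (0.388 to 1.10), 0.419 (0.216 to 0.732) and 0.264 (0.086 to 0.616), so that HepG2 alone was above 1. It was 199.9-fold (123 to 350.3) above Huh-7D12, 324-fold (185 to 628) above Hep3B and 515-fold (220.3 to 1587) above SK-Hep-1. The intervals of all 3 folds among the other lines held 1. AKR1C1 was 36.1 times (22.1 to 63.3) AKR1C3 per kilobase in Huh-7D12 and 1.98 times (1.89 to 2.07) in HepG2. The second place of Huh-7D12 for AKR1C1 thus did not extend to AKR1C3. The ratio in HepG2 depended on the length taken. With the longest transcript in place of all exons, AKR1C1 and AKR1C3 held 25.0% and 24.2% of the family per kilobase there. In Huh-7D12 they held 9.79% and 0.521%.

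AKR1C4, an AKR1C enzyme of normal liver, reduces steroids and bile acid intermediates. The gene (ENSG00000198610, chromosome 10, plus strand, 5195462 to 5218949) had 34 reads in Huh-7D12 and 0 in the other 3 lines. Its level in Huh-7D12 was 1.44 (1.0 to 2.02), at least 8.80-fold above HepG2, 9.12-fold above SK-Hep-1 and 13.8-fold above Hep3B. With the pseudocount of 1 this low gene did not reach 4-fold, and with 0.25 it did. In HepG2, by contrast, the other AKR1C genes had at least 2484 reads each and AKR1C4 had none.

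**Figure D3:**
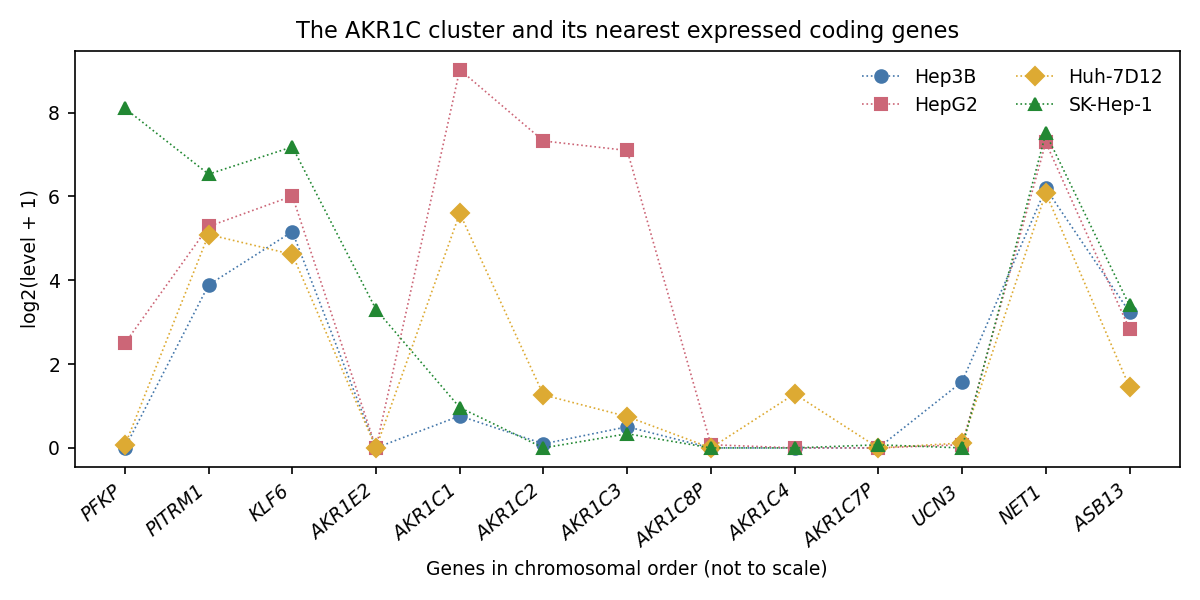
Levels of the AKR1C genes, of other family genes in the cluster and of the nearest entered protein-coding genes on either side, in order along chromosome 10, as log2(level + 1) in the 4 lines (1 point per library, dotted lines join points of the same line). AKR1C1, AKR1C2 and AKR1C3 are high in HepG2, with AKR1C4 at 0 there. NET1 had a level, before the logarithm, of 155 in HepG2 against 180.4 in SK-Hep-1.

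Of the protein-coding genes around the cluster, family members aside, none of the 6 nearest that entered stood higher in HepG2. Among all entered genes 1.46% did, so 6 genes are too few to show a difference from that share. PFKP, PITRM1 and KLF6 lay 1826, 1790 and 1178 kb before the cluster. UCN3, NET1 and ASB13 lay 146, 194 and 420 kb after it. The family gene AKR1E2, which lies nearer, is left out of this count and had 0 reads in HepG2. PFKP, a phosphofructokinase, had levels of 4.65 in HepG2, 0.0425 in Huh-7D12, 0 in Hep3B and 274 in SK-Hep-1, where it stood higher. Around all 5 loci of the members, 2 of 30 flanking genes outside the family stood higher or lower in any line, both higher in SK-Hep-1, against 14.2% of all entered genes. AKR1E2, not among the 30, stood higher in SK-Hep-1 as well. The second was ATP6V0A4, near AKR1D1, with a level of 4.70 in SK-Hep-1 and at most 0.105 elsewhere.

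AKR1B10 reduces retinal and lipid aldehydes, is normally a gene of the intestine and is known for being raised in liver cancer. It (ENSG00000198074, chromosome 7, plus strand, 134527592 to 134541408) had 1533 reads in HepG2, 46 in Huh-7D12, 5 in Hep3B and 0 in SK-Hep-1. Levels were 83.8 (79.7 to 88.1), 1.95 (1.43 to 2.61), 0.175 (0.057 to 0.407) and 0, the same order as for AKR1C2. HepG2 was 42.9-fold (32.0 to 58.9) above Huh-7D12, 480.2-fold (205 to 1481) above Hep3B and at least 529-fold above SK-Hep-1. Huh-7D12 was 11.2-fold (4.46 to 36.1) above Hep3B. Per-million scaling over all gene reads, in which mitochondrial reads count, lowered the folds of HepG2 over Huh-7D12 to 6.89 for AKR1C1, 71.4 for AKR1C2, 126 for AKR1C3 and 27.0 for AKR1B10.

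AKR1B1, aldose reductase, makes sorbitol from glucose in the polyol pathway and lies beside AKR1B10 on the opposite strand (ENSG00000085662, chromosome 7, 134442350 to 134459284). Its reads were 316 in HepG2, 155 in Huh-7D12, 0 in Hep3B and 324 in SK-Hep-1. Levels were 17.3 (15.4 to 19.3), 6.58 (5.59 to 7.70), 0 (up to 0.129) and 17.1 (15.3 to 19.1), so Hep3B stood apart below the other 3 lines. With a pseudocount of 4 its distance below them was -1.40 on the log2 scale, short of 4-fold. HepG2 was at least 165-fold, SK-Hep-1 at least 163-fold and Huh-7D12 at least 62.9-fold above Hep3B. HepG2 and SK-Hep-1 were level, at 1.01-fold (0.863 to 1.18), and HepG2 was 2.62-fold (2.16 to 3.20) above Huh-7D12, or 1.65-fold under per-million scaling over all gene reads. The neighbours thus differed in order: per kilobase, AKR1B10 was 10.2 times (9.01 to 11.5) AKR1B1 in HepG2, 0.623 times (0.438 to 0.871) in Huh-7D12 and at most 0.0194 times in SK-Hep-1.

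AKR1D1 saturates the steroid ring and is needed for bile acid synthesis (ENSG00000122787, chromosome 7, plus strand, 138002324 to 138117986). It had 228 reads in HepG2, 173 in Huh-7D12, 42 in Hep3B and 0 in SK-Hep-1, with levels of 12.5 (10.9 to 14.2), 7.34 (6.29 to 8.52), 1.47 (1.06 to 1.98) and 0. The order was HepG2, Huh-7D12, Hep3B and SK-Hep-1, with no overlap of intervals between neighbours. HepG2 was 1.70-fold (1.39 to 2.08) above Huh-7D12, which was 5.01-fold (3.56 to 7.20) above Hep3B, and Hep3B was at least 9.26-fold above SK-Hep-1. The step between HepG2 and Huh-7D12 was 1.07-fold under per-million scaling over all gene reads. With a pseudocount of 0.25 AKR1D1 stood lower in SK-Hep-1, by -2.78 on the log2 scale. In SK-Hep-1 the 8 hepatocyte marker genes listed also stood lower, 4 of them at 0 reads, with a summed level of 40.1 against 15552 to 31875 in the other lines, while all 4 mesenchymal markers stood higher, with 8542 against 14 to 785. Of 5 endothelial markers with a row 1 entered, with summed levels of 0.106 to 1.61, and of 4 cholangiocyte markers, summing to 265 to 429.7, KRT7 stood higher and EPCAM lower in SK-Hep-1. The hepatocyte marker FGB stood higher in Huh-7D12 and the mesenchymal marker VIM lower in HepG2. Over all entered genes 3.31% stood lower and 5.37% higher in SK-Hep-1, 1.52% higher in Huh-7D12 and 1.15% lower in HepG2. The part of these cell type differences in the level of AKR1D1 was not tested.

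AKR1A1, aldehyde reductase, is expressed in most tissues (ENSG00000117448, chromosome 1, plus strand, 45550543 to 45570049). Reads were 829 in HepG2, 1885 in Huh-7D12, 893 in Hep3B and 804 in SK-Hep-1, and levels were 45.3 (42.3 to 48.5), 80.0 (76.5 to 83.7), 31.2 (29.2 to 33.3) and 42.4 (39.5 to 45.5). Huh-7D12 was highest under every scaling tried, 1.77-fold (1.63 to 1.92) above HepG2 (2.81-fold under per-million scaling over all gene reads) and 2.57-fold (2.37 to 2.78) above Hep3B. HepG2 and SK-Hep-1 were not separated, at 1.07-fold (0.968 to 1.18). HepG2 lay above Hep3B on the deposited scale, but under per-million scaling over all gene reads the fold was 0.987.

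AKR7A2 reduces succinic semialdehyde and the dialdehyde of aflatoxin (ENSG00000053371, chromosome 1, minus strand, 19303965 to 19312146). It had 582 reads in HepG2, 369 in Huh-7D12, 508 in Hep3B and 420 in SK-Hep-1, with levels of 31.8 (29.3 to 34.5), 15.7 (14.1 to 17.3), 17.7 (16.2 to 19.3) and 22.2 (20.1 to 24.4). HepG2 was highest under every scaling tried, 1.44-fold (1.26 to 1.63) above SK-Hep-1 and 2.03-fold (1.78 to 2.32) above Huh-7D12 (1.28-fold under that scaling). SK-Hep-1 was 1.25-fold (1.10 to 1.43) above Hep3B, but 0.964-fold under the same scaling, and Hep3B and Huh-7D12 were not separated, at 1.13-fold (0.988 to 1.30). AKR7A3, which acts on the same aflatoxin product (ENSG00000162482, chromosome 1, minus strand, 19282558 to 19289250), had 5 reads in HepG2, 3 in Huh-7D12, 7 in Hep3B and 2 in SK-Hep-1. Its levels of 0.106 to 0.273 were below entry, and every interval of a fold between lines held 1. RNU6-1099P, a small RNA gene that overlaps AKR7A2, had 12, 3, 4 and 0 reads. AKR7A2 and AKR7A3 were 84.6% identical in coding sequence.

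Summed over the 10 members, levels were 1005 in HepG2, 163 in Huh-7D12, 52.0 in Hep3B and 83.0 in SK-Hep-1. On a per-million scale over reads outside mitochondrial genes the sums were 1523, 249.7, 86.1 and 115. AKR1C1 alone held 51.7% of the family's reads in HepG2 (Wilson 95% interval, 50.9 to 52.4) and 29.1% in Huh-7D12 (27.7 to 30.6). Transcripts differ in length, so the make-up was also taken per kilobase of exon. On that scale the AKR1C genes made up 56.0% of the family in HepG2, 14.1% in Huh-7D12, 0.877% in Hep3B and 0.538% in SK-Hep-1. AKR1A1 was the largest member in Hep3B, Huh-7D12 and SK-Hep-1, with 47.9%, 55.3% and 43.9%. AKR7A2 followed closely in Hep3B with 47.8% and in SK-Hep-1 with 40.2%. There the intervals of the ratio of AKR1A1 to AKR7A2, 0.899 to 1.12 and 0.970 to 1.23, held 1. That closeness depended on the length taken. With the longest transcript in place of all exons, AKR1A1 held 54.6% and AKR7A2 41.5% in Hep3B. In SK-Hep-1 they held 47.8% and 33.3%. In HepG2 AKR1A1 held 7.15%, behind AKR1C1 with 29.2%, AKR1B10 with 23.7%, AKR1C3 with 14.7%, AKR1C2 with 12.1% and AKR7A2 with 8.79%. The order of the leading members in HepG2 depended on the length taken: with the longest transcript in place of all exons, AKR1C3 held 24.2%, AKR1C1 25.0% and AKR1B10 17%.

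**Figure D4:**
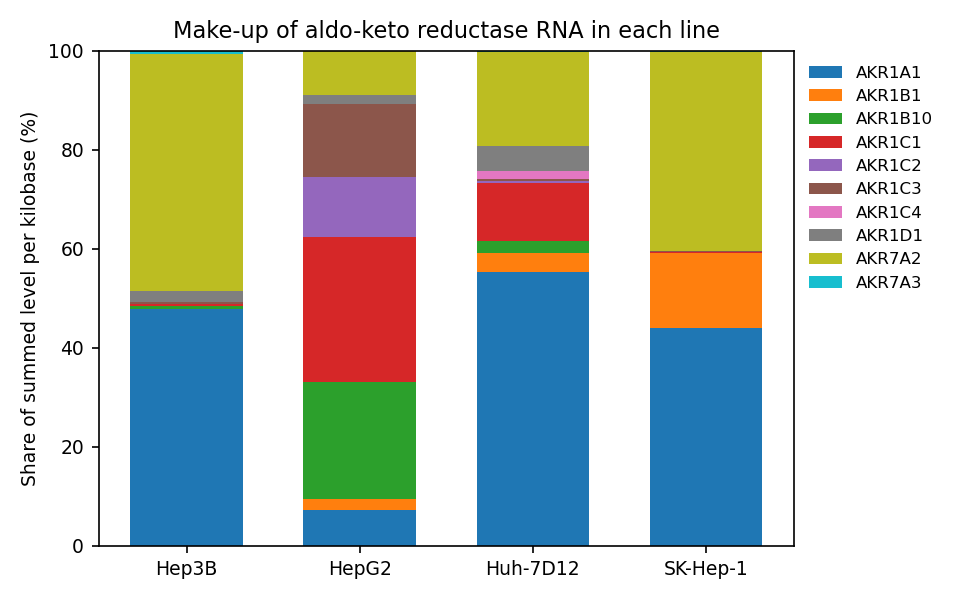
Make-up of the aldo-keto reductases in each line, in percent of the summed level per kilobase of exon (stacked bars from 0 to 100, 1 library per line). The AKR1C genes fill 56.0% of the HepG2 bar and 14.1% of the Huh-7D12 bar, and AKR1A1 with AKR7A2 fills most of the Hep3B and SK-Hep-1 bars.

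Among 13383 protein-coding genes that entered, ranked by level per kilobase, AKR1C1 was at rank 392 in HepG2, AKR1B10 at 488, AKR1C3 at 822 and AKR1C2 at 1014. AKR1A1 ranked 1869 in HepG2, 1019 in Huh-7D12, 2622 in Hep3B and 2033 in SK-Hep-1. AKR7A2 ranked between 1454, in HepG2, and 3037, in Huh-7D12. AKR1C1 was at 4561 in Huh-7D12. AKR1B1, the third highest member in SK-Hep-1 per kilobase, ranked 5209 there.

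Of 14 other genes of the superfamily that were listed, 9 had a row and 3 entered. AKR1E2, a reductase gene beside the AKR1C cluster, had 168 reads in SK-Hep-1, a level of 8.86, and 0 reads in the other 3 lines. It was at least 84.7-fold above Hep3B, 69.6-fold above Huh-7D12 and 54.0-fold above HepG2, and stood higher in the line in which the AKR1C members were lowest or nearly so. KCNAB2, which encodes a beta subunit of potassium channels, had levels of 10.5 in HepG2, 6.03 in Huh-7D12, 10.1 in Hep3B and 47.6 in SK-Hep-1, where it stood higher at 4.51-fold (3.86 to 5.30) above HepG2. The AKR1B10 relatives AKR1B15 and AKR1B10P1 had 5 and 11 reads, all in HepG2.

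The NRF2 pathway was examined because AKR1B10 and the AKR1C genes are among its textbook targets. None of 12 genes of NRF2 and its regulators stood higher or lower in any line, against 14.2% of all entered genes. With 12 genes this is too few to show a difference from that share. Their median log2 difference from the mean of the other lines was 0.05 in HepG2, -0.14 in Huh-7D12, -0.09 in Hep3B and 0.67 in SK-Hep-1. Over all entered genes these medians were -0.08, -0.05, -0.06 and -0.03. NFE2L2, which encodes NRF2, had levels of 170.2 in HepG2, 123 in Huh-7D12, 98.6 in Hep3B and 65.7 in SK-Hep-1. KEAP1, its repressor, had 31.2, 33.4, 29 and 14.2 in the same order. The NFE2L2 fold of HepG2 over Huh-7D12 was 1.38, and 0.867 under per-million scaling over all gene reads, so which of these lines was higher depended on the scaling.

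Of 25 entered NRF2 targets outside the family, 3 stood higher and 1 lower in HepG2, 1 higher in Huh-7D12, and 1 higher (CBR3) and 1 lower (NQO1) in SK-Hep-1. Over all entered genes the shares were 1.46% higher and 1.15% lower in HepG2 and 1.52% higher in Huh-7D12. In SK-Hep-1 they were 5.37% higher and 3.31% lower. The medians of the 25 targets were 0.55 in HepG2, -0.11 in Huh-7D12, -0.86 in Hep3B and -0.09 in SK-Hep-1. Under per-million scaling over all gene reads the median was 0.08 in HepG2 and 0.31 in Huh-7D12. NQO1, a quinone reductase, had levels of 699 in HepG2, 119 in Huh-7D12, 8.34 in Hep3B and 0.0528 in SK-Hep-1, and HepG2 was 5.90-fold (5.66 to 6.15) above Huh-7D12. GPX2, a glutathione peroxidase, had 370.3, 13.1, 0.489 and 0 in the same lines, 28.2-fold (25.2 to 31.7) higher in HepG2 than in Huh-7D12. Both had HepG2 first, which standing higher there requires, and Huh-7D12 second, as AKR1C1, AKR1C2 and AKR1B10 did. The order varied among the other targets. GSR and FTL had it too, while GCLC and UGDH had Hep3B second. TXNRD1, HMOX1 and SLC7A11 were highest in SK-Hep-1, and GCLM in Huh-7D12. ABCC2, an export pump, was the third, with 321 in HepG2, 77.3 in SK-Hep-1, 60.8 in Hep3B and 56.5 in Huh-7D12. ME1, malic enzyme, went the other way, with 1 read in HepG2 (a level of 0.0547) against levels of 40.7 in Huh-7D12, 9.71 in SK-Hep-1 and 8.97 in Hep3B. PIR stood higher in Huh-7D12, with 60.8 against 14.4 in HepG2. Under per-million scaling over all gene reads NQO1 and ABCC2 fell short of 4-fold above the next line in HepG2, while GPX2 stayed above it.

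**Figure D5:**
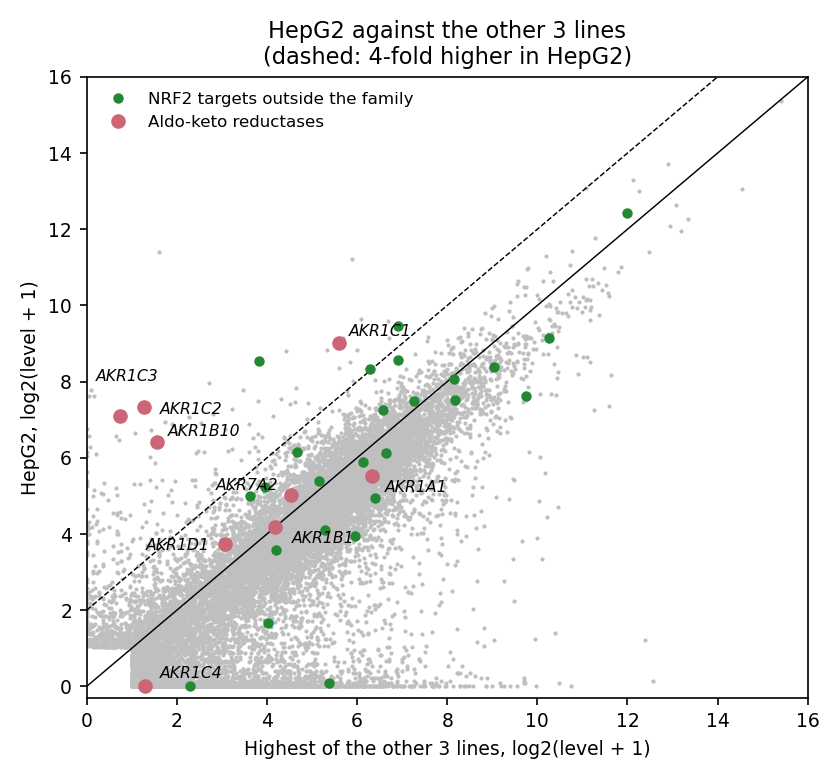
Each point is an entered gene, with log2(level + 1) in HepG2 on the vertical axis and the highest of the other 3 lines on the horizontal axis; the solid line marks equality and the dashed line 4-fold. AKR1C1, AKR1C2, AKR1C3 and AKR1B10 lie above the dashed line together with 3 of the 25 NRF2 targets outside the family (green), and AKR1A1 and AKR1C4 lie below equality.

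The genes that share substrates with the members were described by list. The shares of all entered genes that stood higher or lower in each line, given above, are the background for these counts. In bile acid synthesis, the pathway of AKR1D1 and AKR1C4, 13 genes entered, of which CYP7B1 stood higher in Hep3B and NR1H4 and NR0B2 lower in SK-Hep-1. The list's medians were 1.21 in HepG2, -0.53 in Huh-7D12, 0.61 in Hep3B and -1.21 in SK-Hep-1. The HepG2 median was 0.64 without SK-Hep-1, and between 0.58, with a pseudocount of 4, and 2.32, with 0.25. NR0B2, which represses bile acid synthesis, had levels of 98.6 in HepG2, 9.34 in Huh-7D12, 40.1 in Hep3B and 0 in SK-Hep-1, and NR1H4, the bile acid receptor, had 51.3, 48.7, 62.3 and 0. SK-Hep-1 thus had no reads of either, as for AKR1D1. Among 10 entered genes of steroid reduction and hydroxysteroid dehydrogenases 1 gene, HSD11B2, stood lower, in SK-Hep-1. The list's medians were 0.28, 0.17, 0.61 and -0.54, and without SK-Hep-1 those of HepG2 and Huh-7D12 were -0.26 and -0.38. HSD17B2, which inactivates estradiol and testosterone, had levels of 16.2, 8.28, 2.13 and 0, the order of AKR1D1.

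In the polyol and fructose pathway, which starts with AKR1B1, 7 genes entered, and in SK-Hep-1 HK1 stood higher and KHK lower. The list's medians were 1.21 in HepG2, -0.30 in Huh-7D12, 0.51 in Hep3B and -1.13 in SK-Hep-1. Without SK-Hep-1 the median was -0.12 in Hep3B and -0.80 in Huh-7D12. In Hep3B, where AKR1B1 was without reads, none of the 7 stood lower. In prostaglandin synthesis, where AKR1C3 acts, 11 genes entered, of which PTGR1 stood lower in Hep3B and PLA2G4A and SLCO2A1 higher in Huh-7D12, with medians of -0.87, 0.92, -0.34 and -0.35, with 1.5 in Huh-7D12 without SK-Hep-1. No gene of this list stood higher in HepG2. PTGR1, a prostaglandin reductase, had levels of 40.8 in HepG2, 79.3 in Huh-7D12, 1.40 in Hep3B and 27.3 in SK-Hep-1. It was lowest in the line that had no AKR1B1 reads, and a link between these genes was not tested.

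In retinoid metabolism, where AKR1B10 acts, 13 genes entered, with ALDH1A3 higher and ALDH1A1 and RBP4 lower in SK-Hep-1. The list's medians were 0.12 in HepG2, 0.01 in Huh-7D12, 0.93 in Hep3B and -0.97 in SK-Hep-1, and the Hep3B median was 0.40 without SK-Hep-1. The last lists hold enzyme families that act on many of the same carbonyls. Of 12 entered carbonyl reductases of the short-chain dehydrogenase family, DHRS2 stood higher in HepG2 and CBR3 in SK-Hep-1. The list's medians were 0.64, -0.25, -0.45 and 0.72, and under per-million scaling over all gene reads those of HepG2 and Huh-7D12 were -0.06 and 0.38. DHRS2 had a level of 2718 in HepG2. Of 17 entered aldehyde dehydrogenases, ALDH1L1 stood higher in HepG2, and in SK-Hep-1 ALDH1A3 and ALDH3B1 stood higher and ALDH1A1 and ALDH2 lower. The list's medians were 0.94, 0.19, -0.06 and -1.09, with -0.41 in Huh-7D12 without SK-Hep-1. The aldo-keto reductases themselves had medians of 2.30, 0.13, -2.22 and -2.44 over their 9 entered members, a description of genes that were picked with earlier results known.

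For each member with a range of at least 4-fold, the 3 genes outside chromosome Y with the closest profile were found by Euclidean distance between log2(level + 1) values centred over the 4 lines. AKR1C3 was closest to HEPACAM, at 0.30, then SLC13A3 and the lincRNA AC007493.1, both at 0.45. AC007493.1 was also the closest to AKR1C2, at 0.70, and to AKR1B10, at 0.72, so these 3 members shared a neighbour. AKR1C1 was closest to GPX2, at 1.20, followed by IGSF1 at 1.38 and TGFBR3 at 1.68. AKR1D1 was closest to LINC02542 at 0.23, HSD17B2 at 0.29 and NPM2 at 0.32. AKR1B1, low in Hep3B, was closest to TAGLN at 0.77, ZNF512 at 0.89 and ENO2 at 0.93. With 4 lines a profile has few degrees of freedom, and closeness here says only that the 4 levels were similarly spaced.

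Circular RNAs of the members had at most 2 reads in a line. Of 12473 circRNAs in the deposited table, of which 8000 had reads across the back-splice junction, 3 belonged to members, and 2 of these had such reads. The AKR1A1 circle (chr1:45566569-45567020, 452 bases along the genome) had 1 read in HepG2 and 2 in Huh-7D12. The AKR1C1 circle (chr10:4963428-4967043, 3616 bases) had 1 read in each of the same lines, beside 9503 and 1116 reads of the gene. The AKR1B10 circle had none. These counts are below the floor of 3 reads, so no difference between lines was detectable at this depth. AKR1E2 had 2 circRNAs with reads, 2 and 4, all in SK-Hep-1, the line in which its gene had reads.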

How the data were processed

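Total RNA of 4 lines, 1 library each, was ribosome-depleted, made into stranded libraries without poly(A) selection and sequenced as 100-bp paired ends, per the labels' protocols. STAR 2.6.1d and hg38 are named per the submitters' processing notes. The counter, its strand setting and its handling of reads with several matches are all not given in the sources used. Both tables, genes and circRNAs, hold signal values; the deposited signal values were whole reads multiplied by 1 factor per library (1.39 in HepG2, 1.08 in Huh-7D12, 0.890 in Hep3B, 1.35 in SK-Hep-1): 100% of values came out whole within 0.001. Reads summed to 22950383, 18581156, 24409250 and 20938569 in that order, of which 12075008, 15340422, 17283875 and 13644009 lay outside mitochondrial genes, and 1 read is a level of 0.0547, 0.0425, 0.0349 and 0.0528.

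Levels are the deposited values on a per-million scale, set by the mean column total. Against 0 reads a fold was taken to a floor of 3 reads per library, levels of 0.164, 0.127, 0.105 and 0.158. Count tests were not run, as lines with single libraries give a model no residual degrees of freedom. Positions and lengths came from GENCODE 29, whose identifiers matched all 29670 genes. Genes named are all members, up to 4 per list, the 3 closest profiles and 3 flanking protein-coding genes on each side of a locus. NFE2L2, KEAP1, the called list genes and NET1 were named beside these after their values were seen. Members, lists and rules were chosen with earlier results of these data known. Python 3.11.15 (pandas 2.3.3, SciPy 1.17.1, Biopython 1.88) and R 4.3.3 (edgeR 4.0.16 and DESeq2 1.42.0, for scaling factors only) were used. Other pseudocounts, entry levels, thresholds, scalings, transcript lengths and comparisons without 1 line were tried.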

Additional observations from a re-analysis of the deposited data

How the results depend on the processing

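The count of members higher in HepG2 was 4 under all alternatives run. The count lower in Hep3B, 1, was 0 with a pseudocount of 4 and at 8-fold, and 2 without SK-Hep-1. The count higher in Huh-7D12, 0, was 1 with a pseudocount of 0.25 and at 2-fold, as was the count lower in SK-Hep-1. In all, 79 of 86 alternative counts were the same or within 1.5 times. Many of these were counts of 0 that stayed 0: those higher in Hep3B and SK-Hep-1 and lower in HepG2 and Huh-7D12. Per-million scaling over all gene reads shifted the level of every gene by -0.35 in HepG2, 0.32 in Huh-7D12, 0.21 in Hep3B and -0.17 in SK-Hep-1. These are log2 shifts from the deposited scaling, relative to their mean over the 4 lines. Among folds whose interval left out 1, 2 of the alternative values lay on the other side of 1, both under that scaling: AKR1A1 in HepG2 over Hep3B became 0.987 and AKR7A2 in SK-Hep-1 over Hep3B 0.964. Without mitochondrial reads the shifts were -0.01, 0.01, 0.12 and -0.13. Of 315 alternative list medians 24 changed sign, all of main values within 0.64 of 0. Of 25 alternative shares 21 moved. No paired analysis was possible because each line has 1 library. Depth limits AKR7A3, AKR1C4, the circRNAs and the AKR1C and AKR1B10 levels in Hep3B and SK-Hep-1.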
